A study of Mus musculus with 36 samples.

Results

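The cultures described here are primary mouse hepatocytes that received an adenoviral vector for human GKRP carrying leucine at residue 446 (hL) and the untreated cultures of the same hepatocyte preparations, both at the endogenous level of glucokinase (GK). They were chosen by their treatment label and make up 9 of the 36 RNA-sequencing libraries of the series: 3 hL cultures, 1 from each of 3 mice, and 6 untreated cultures, 2 from each mouse. The hepatocytes came from female GCKR-P446L mice and are described as GKRP-deficient. This line carries the 446L variant and is not the Gckr deletion line that the study also used. Gckr reads were present in the untreated cultures. Mouse 1 and mouse 2 had the genotype Gckr-446L and mouse 3 had Gckr-446P/L. After attachment the hL cultures were exposed to the GKRP vector at 5 to 50 pfu per cell, and both groups were cultured with 10 nM insulin and 10 nM dexamethasone in 5 mM glucose for 24 h. Both groups then spent 4 h in 25 mM glucose before RNA was extracted. The untreated cultures received no vector, and the 10 conditions hold no vector that lacks both GKRP and GK. An effect of infection with an adenovirus therefore cannot be told apart from an effect of GKRP-446L in a comparison with untreated cells. For the comparisons that follow, the 2 untreated cultures of a mouse were summed, so each group had n = 3 mice. A single fit with condition and mouse as terms covered all 30 samples left in the 10 conditions. Each p-value was therefore set against the spread left after both terms, which the 10 conditions share.

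GK catalyses the first step of glucose use in hepatocytes and is the sensor through which these cells respond to a rise in glucose. GKRP, encoded by Gckr, binds GK, inhibits it and holds it in the nucleus, and GK is released when glucose or fructose 1-phosphate rises. Phosphorylated glucose activates the transcription factor ChREBP (Mlxipl), which drives genes of glycolysis, glucose transport and lipid synthesis. DNA replication in dividing cells is prepared by E2F transcription factors, which induce the cyclins E, the MCM helicase, its loading factors and the enzymes that make deoxynucleotides.

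Of 12177 genes tested, hL raised 306 (2.51%) and lowered 56 (0.46%), by edgeR's quasi-likelihood F test with the mouse as a block, where a call needed an adjusted p under 0.05 and a level 1.3 times that of untreated cells or more, or 0.7 times or less. Together these were 362 genes (2.97%). The raised genes were led by genes of DNA replication and the G1 to S transition, followed by a smaller set of the ATF4 stress pathway. The lowered genes included Txnip, Slc2a2 and Pklr, 3 targets of ChREBP. Among the raised genes the median log2 fold change was 0.77 and 111 at least doubled, whereas the lowered genes had a median of -0.71 and 12 of them were at 0.5 times the untreated level or less. Every one of the 362 called genes moved in the same direction in 3 of 3 mice, as did 5376 of the 12177 genes tested. The calls were made on these same 3 mice, so this agreement is not a separate test. By biotype, 349 of the called genes are protein coding, 8 are lncRNAs and 3 are processed pseudogenes. Without the mouse as a block 98 genes were raised and 9 lowered, and without mouse 3, the Gckr-446P/L mouse, 55 were raised and 6 lowered. With the transcript lengths of each library as an offset, 20 were raised and 1 was lowered.

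The vector itself was not seen in these data, because human GCKR is not among the mouse transcripts to which reads were assigned. Mouse Gckr (ENSMUSG00000059434, chromosome 5, 31454787 to 31484658, GRCm39) ranged from 37.1 to 72.0 CPM over the 6 untreated cultures with a median of 61.2, and was 47.3, 99.0 and 74.1 CPM in the hL cultures of mice 1, 2 and 3. CPM are counts scaled to a common library size by TMM. The groups overlapped, and the log2 fold change of 0.40 ± 0.56 (SE, adjusted p = 0.812) did not pass the test. In the 6 cultures with a mouse GKRP vector, by contrast, Gckr was between 11186 and 23270.3 CPM, so a mouse vector was visible in the counts.

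All libraries held between 3924674 and 10046158 reads, and the 9 described here between 3924674 and 7678682. Hepatocyte markers summed to between 43161 and 81250.2 TPM in hL and between 45448 and 90557 TPM in untreated cultures. Macrophage markers summed to 247 to 812 TPM in untreated and 363 to 1048 TPM in hL cultures, and Cd3d and Nkg7 of the lymphocyte list had no reads in the 9 libraries. None of the markers tested for these cell types was called. In bulk RNA, fewer cells of a type and less RNA per cell cannot be told apart.

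Genes of DNA replication rose together with the hL vector. In 5 lists covering origin licensing and the fork, E2F factors and G1/S cyclins, the replication checkpoint with homologous recombination, replication-coupled chromatin, and deoxynucleotide synthesis, 46 of 84 tested genes were raised (54.8%, against 2.51% of all genes tested) and 0 were lowered. Their median log2 fold change was 0.89, beside 0.01 over all genes. The other 38 did not pass the test.

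Among the genes of origin licensing and the replication fork, 19 of 33 were raised and the median log2 fold change was 0.95. The MCM genes encode the 6 subunits of the replicative helicase, and each of the 6 was raised, from Mcm7 at 0.86 to Mcm5 at 2.46 on the log2 scale. Mcm5 had 3.42 CPM in the lowest untreated culture, a median of 5.73 and 11.6 in the highest, against 41.5, 28.4 and 39.0 CPM in the hL cultures of mice 1, 2 and 3. The lowest hL culture of Mcm5 was thus more than double the highest untreated culture, and the log2 fold change was 2.46 ± 0.17 (SE, adjusted p = 3.32e-09). Mcm4 ran from 7.77 to 14.1 CPM in untreated cultures with a median of 11.96, and was 67.6, 43.0 and 62.9 CPM with hL (log2 fold change 2.35 ± 0.12, adjusted p = 3.77e-11). As for Mcm5, mouse 2 gave the lowest of the 3 hL cultures. The loading factors Cdt1 and Orc1 rose by 1.66 and 2.15, and Lig1, the ligase that joins Okazaki fragments, by 1.6. Pcna, the sliding clamp, rose from 73.2 to 138 CPM in the group means, a log2 fold change of 0.90. The licensing factor Cdc6 had group means of 0.902 and 0.906 CPM, and Gmnn, whose product geminin inhibits CDT1, had a log2 fold change of 0.56 that did not pass (adjusted p = 0.114).

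**Figure D1:**
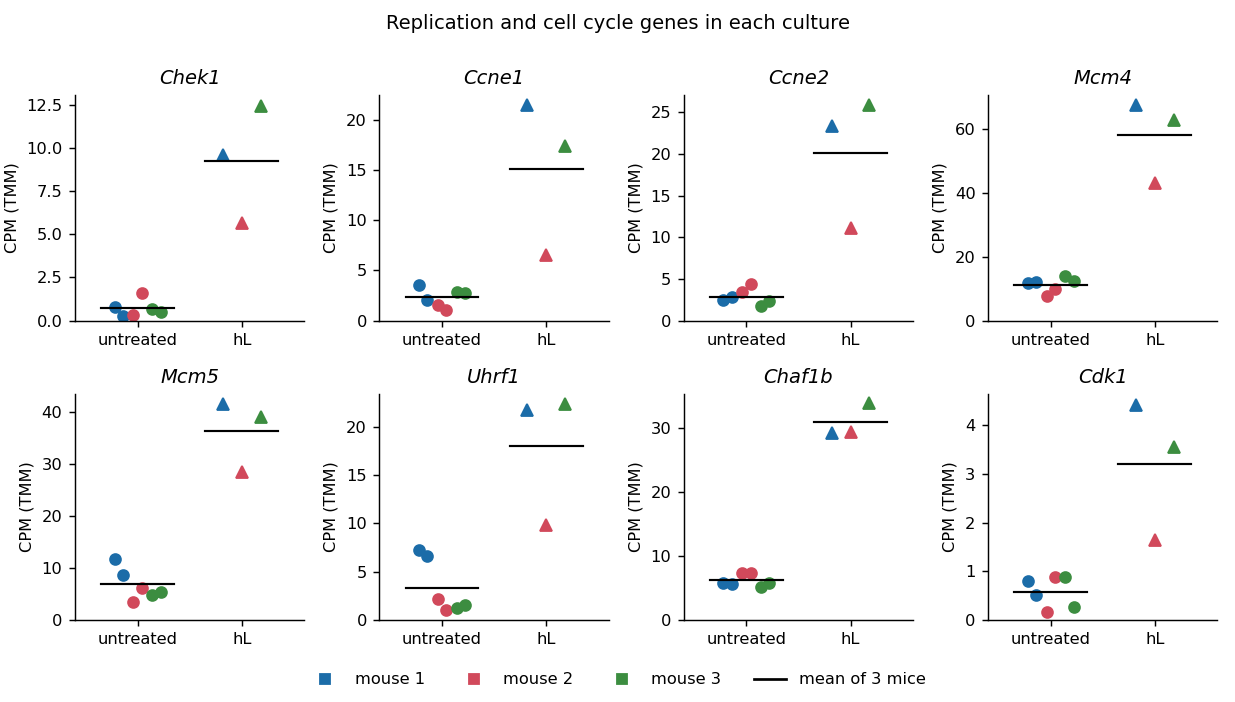
CPM (TMM-scaled, linear axis from 0) of 8 replication and cell cycle genes in each of the 6 untreated cultures (circles) and the 3 hL cultures (triangles), coloured by mouse, with black lines at the mean of 3 mice. For each of the 8 genes every hL culture lies above every untreated culture, and for all but Chaf1b the hL culture of mouse 2 is the lowest of the 3. The 8 genes were chosen among genes called on these cultures. The cultures of the 2 groups did not overlap for 211 of the 306 raised genes and for 772 of all 12177 tested.

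E2F factors and the cyclins of G1/S showed the same direction, with 8 of 16 raised and a median of 1.03. Ccne1 and Ccne2 encode cyclins E1 and E2, the partners of CDK2 at the start of S phase. Ccne1 had a lowest, median and highest untreated value of 1.02, 2.38 and 3.55 CPM, and was 21.4, 6.55 and 17.4 CPM with hL, a log2 fold change of 2.63 ± 0.23 (adjusted p = 1.92e-07). Ccne2 ran from 1.76 to 4.38 CPM in untreated cultures and was 23.3, 11.1 and 25.8 CPM with hL (log2 fold change 2.74 ± 0.31). The spread between hL cultures was wide for both cyclins, but neither overlapped the untreated range. E2f1 and E2f8, an activator and a repressor of the family, rose by 1.57 and 2.39, and Rbl1, the pocket protein p107, by 1.68. Cdk2 rose by 1.21, from 14.8 to 34.6 CPM. Ccnd1, the cyclin that acts before this step, had a log2 fold change of 0.01 (adjusted p = 0.992). Rb1, E2f3 and Skp2 also did not pass.

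In the checkpoint and recombination list 7 of 16 tested members were raised, and 10 others had too few reads to be tested. Chek1, the checkpoint kinase that restrains cells with stalled forks, had the largest increase among called genes with a mean of at least 1 CPM. It was nearly silent in untreated cultures, from 0.253 to 1.604 CPM with a median of 0.612, and reached 9.56, 5.64 and 12.4 CPM with hL (log2 fold change 3.57 ± 0.35, adjusted p = 6.49e-07). These values rest on 27 reads over the 6 untreated libraries and 163 over the 3 hL libraries. Brca2, a factor of homologous recombination, rose by 2.10, and Timeless, of the fork protection complex, by 2.01. Rad51c rose by 3.08 ± 0.62, from 7 reads in all untreated libraries to 29 in the hL libraries. Atr, the kinase upstream of CHEK1, was at 31.0 and 30.4 CPM and did not change past the test.

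Chromatin factors that act behind the fork were raised in 6 of 9 cases. Uhrf1, which brings the maintenance methyltransferase to hemimethylated DNA, was 1.02 to 7.27 CPM in untreated and 21.7, 9.83 and 22.3 CPM in hL cultures (log2 fold change 2.49 ± 0.32). Its untreated level was highest in mouse 1, at 7.27 and 6.58 CPM, against 2.18 CPM or less in the other 4 cultures. Chaf1b, a subunit of chromatin assembly factor 1, showed little spread, with 5.11 to 7.31 CPM untreated and 29.1, 29.3 and 33.8 CPM with hL (log2 fold change 2.32 ± 0.19). Ezh2, Hells, Dnmt1 and Nasp rose by 1.41, 1.31, 0.79 and 0.53. Of the deoxynucleotide enzymes 6 of 10 were raised, among them Rrm1, the large subunit of ribonucleotide reductase, at 1.19, and Tyms, thymidylate synthase, at 0.99. The small subunit Rrm2 went from 79.5 to 93.3 CPM, a log2 fold change of 0.35 that did not pass (adjusted p = 0.427).

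Genes of mitosis were mostly below the level at which they could be tested. Of 25 listed genes 6 had enough reads, and 1 of these, Cdk1, was raised. Cdk1, the kinase of entry into mitosis, was between 0.156 and 0.880 CPM untreated and 4.43, 1.64 and 3.56 CPM with hL (log2 fold change 2.34 ± 0.46, adjusted p = 0.00411), on 21 and 54 reads in the 2 groups. The proliferation marker Mki67 had group means of 1.63 CPM untreated and 1.66 CPM with hL, and the mitotic kinase Aurka of 1.52 and 0.655 CPM (adjusted p = 0.327). Ccnb1, the gene of cyclin B1, had a mean of 0.116 CPM untreated and no reads with hL, and was not tested. Wee1, which holds CDK1 inactive, rose from 9.56 ± 0.86 to 34.9 ± 6.2 CPM (SD, n = 3), a log2 fold change of 1.86 ± 0.12 that kept its call in each alternative analysis.

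The counts of raised genes in these 5 lists, in the order given, were 19, 8, 7, 6 and 6, and without mouse 3 they were 9, 4, 3, 4 and 2. They were 4, 3, 1, 2 and 0 when transcript lengths were entered as an offset, and 14, 7, 5, 2 and 3 without the block.

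The E2F motif was searched in the 250 bases before the start of the canonical transcript of every gene tested (GRCm39), as the letters TTTCCCGC, TTTCGCGC, TTTGCCGC or TTTGGCGC on either strand. It was present in 3.03% of the 12177 promoters, in 7.52% of the 306 raised genes and in 15.3% of the 111 genes raised at least 2-fold. In the lowered genes the share was 3.57%, and among the E2F and G1/S list it was 31.2% (5 of 16). In the other replication lists it was 15.2% for licensing and the fork (5 of 33), 6.25% for checkpoint and recombination (1 of 16) and 0% for both chromatin (0 of 9) and deoxynucleotide synthesis (0 of 10). The ChREBP list had 10% (2 of 20). The CCAAT box, a common promoter motif, was in 36.2% of all and 40.8% of raised promoters. The promoters of Mcm4 and Mcm5, both raised about 5-fold with no annotated exon in the window, are shown in the direction of transcription with the matches in capitals. They lie at chr16:15455265-15455514 on the minus strand and chr8:75835890-75836139 on the plus strand.
Mcm4: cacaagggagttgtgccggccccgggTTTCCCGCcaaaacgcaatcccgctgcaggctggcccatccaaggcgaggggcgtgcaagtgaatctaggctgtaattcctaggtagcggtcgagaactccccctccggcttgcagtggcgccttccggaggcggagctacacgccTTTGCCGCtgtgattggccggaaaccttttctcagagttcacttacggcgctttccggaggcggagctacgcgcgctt
Mcm5: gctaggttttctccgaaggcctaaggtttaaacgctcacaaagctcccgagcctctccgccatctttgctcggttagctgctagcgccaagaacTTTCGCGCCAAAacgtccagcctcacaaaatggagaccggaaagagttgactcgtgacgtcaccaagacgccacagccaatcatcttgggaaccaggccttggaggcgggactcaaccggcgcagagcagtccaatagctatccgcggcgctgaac
The capitals of Mcm5 are 2 overlapping matches, one on each strand, that begin 156 and 152 bases before the start site. Those of Mcm4 begin 224 and 78 bases before it. E2f8, Cdk1 and Brca2 held 1 match each, shown here with 10 bases on either side as examples among the 23 raised genes with a match.
E2f8: cccgctttccGCGCCAAAtttttaaatc
Cdk1: ttccgctcccTTTCGCGCtctgcgctcc
Brca2: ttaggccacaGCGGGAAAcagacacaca
These 3 matches begin 151, 105 and 157 bases before the start sites on chromosomes 7, 10 and 5. A match of letters is a description of the sequence, and binding was not measured.

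The ATF4 and unfolded protein response list had 6 raised and 0 lowered members of 18 tested, with a median of 0.35. All 6 belong to the ATF4 branch, in which ATF4 induces genes of amino acid supply and stress under reduced translation: Chac1, Trib3, Ddit3, Sesn2, Atf4 and Atf3. Chac1, an enzyme that degrades glutathione, ran from 1.604 to 4.52 CPM in untreated cultures with a median of 2.57, and was 22.6, 22.8 and 21.2 CPM with hL. The 3 hL values were close to each other and far above the untreated range (log2 fold change 2.89 ± 0.34, adjusted p = 1.27e-05). Ddit3, the transcription factor CHOP, was 7.92, 12.6 and 11.4 CPM with hL against 4.05 to 7.62 CPM untreated, a log2 fold change of 0.99 ± 0.18. Trib3, a pseudokinase induced by CHOP and ATF4, doubled from 23.3 ± 11.5 to 47.0 ± 8.4 CPM (log2 fold change 1.06 ± 0.20). Atf4 rose from 178 to 247 CPM, by 0.47. Asns, Psat1, Phgdh and Slc7a11, the genes of amino acid supply in the list, were at 0.345, 0.145, 1.04 and 0.485. None of them was called (adjusted p = 0.269, 0.515, 0.0725 and 0.123). The list holds only some genes of amino acid supply. Outside it the amino acid transporters Slc7a1, Slc7a5, Slc38a2, Slc6a9 and Slc1a4 were called raised, by 1.19, 0.77, 0.61, 0.51 and 0.42. They are examples chosen after their values were seen. No chaperone of the endoplasmic reticulum was called: Hspa5 was at -0.30 (adjusted p = 0.0528), and Hsp90b1 and Pdia4 were at -0.19 and -0.05. Without mouse 3 the list kept 1 raised member, and without the block 3.

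The composite ATF4-C/EBP motif TGATGCAA, read on both strands, stood in 5 of the 18 promoters of this list (27.8%) and in 0.485% of all promoters tested. The list includes the 12 members that were not called. Among the 306 raised genes the motif stood in 3 (0.98%), and among the 111 raised at least 2-fold in 1 (0.901%). Among the called members shown here, Chac1 and Ddit3 carried it, each as the reverse complement TTGCATCA in capitals.
Chac1: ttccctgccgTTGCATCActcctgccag
Ddit3: ttgccaaacaTTGCATCAtccccgcccc
In Chac1 (chr2:119181520-119181547, plus strand) the match begins 159 bases before the canonical start site, and in Ddit3 (chr10:127126351-127126378, plus strand) 199 bases before it. Both windows lie in exons of annotated transcripts, so short stretches are shown.

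Hspa1a, which encodes an inducible cytosolic HSP70 chaperone, was among the 15 named genes with the largest increase. It was 0.253 to 1.09 CPM untreated and 10.0, 3.09 and 4.10 CPM with hL (log2 fold change 2.63 ± 0.56, adjusted p = 0.00770). Its near-identical neighbour Hspa1b was also called raised, by 1.67. Hspa1b can share reads with Hspa1a, so the split between them is uncertain. The call of Hspa1a was lost on leaving out any 1 of the 3 mice. Hmox1, heme oxygenase 1, rose by 0.69 ± 0.12 (adjusted p = 0.00109). Within each mouse the hL culture exceeded both untreated cultures of Hmox1: 225 against 120 and 147 CPM in mouse 1, 901 against 564 and 602 in mouse 2, and 389 against 211 and 270.0 in mouse 3. Across mice its ranges overlapped, and its call was lost without mouse 3.

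Of 21 p53 targets 2 were raised, Cdkn1a (p21) by 0.47 ± 0.09 and Sesn2 by 0.60 ± 0.13, and the list median was 0.08. Sesn2 is also counted in the ATF4 list. Both calls were lost without mouse 3, that of Cdkn1a also without mouse 1 and that of Sesn2 without mouse 2. Cdkn1a was between 176 and 245 CPM in untreated and 277, 308 and 293 CPM in hL cultures. Among genes of the innate response few passed the test. Of 24 interferon genes 1 was raised, the peptide transporter Tap1 at 0.73 ± 0.19 (adjusted p = 0.0337), with a list median of 0.07. The call of Tap1 was lost in 9 of 19 alternatives, among them no block, no filter and leaving out any 1 of the 3 mice. No gene was called among 13 NF-kB targets and chemokines (median -0.09) or among 20 acute phase proteins (median -0.03). Cxcl1 and Ccl2 were lower in group means at -0.48 and -0.38 but differed several-fold between preparations in both groups.

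**Figure D2:**
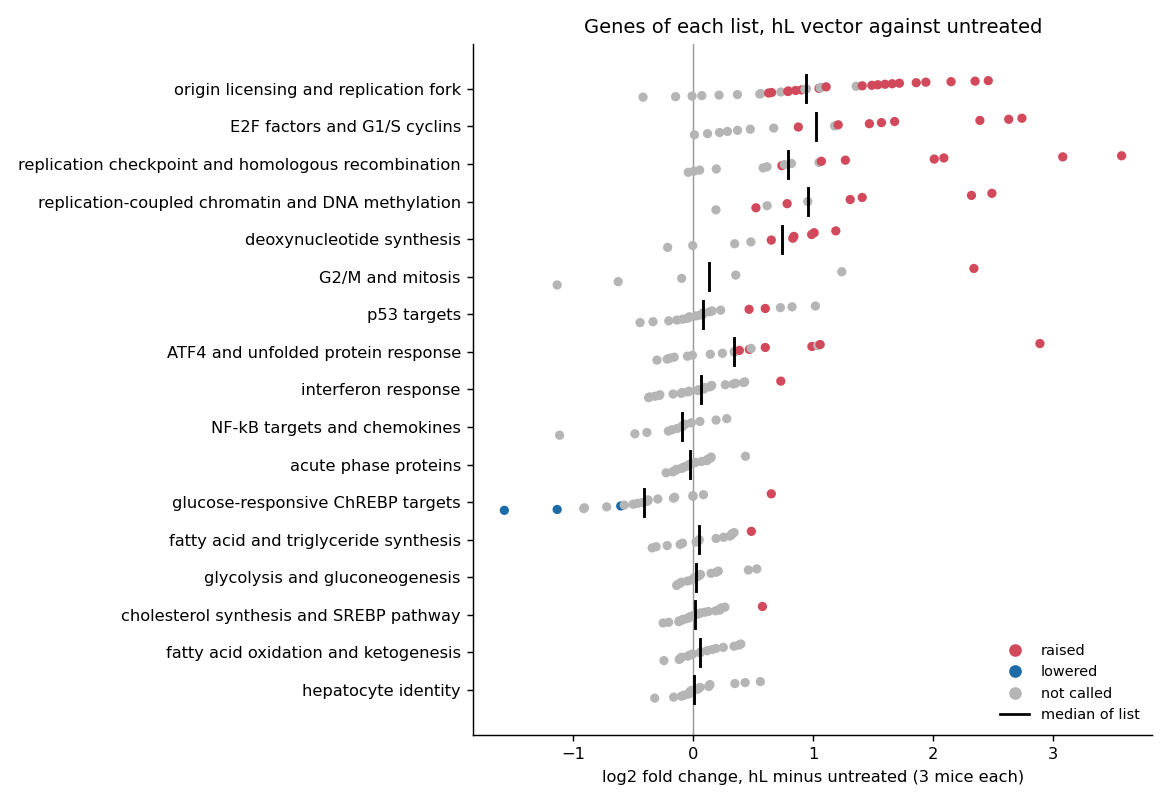
Log2 fold change of hL against untreated (3 mice each) for the tested genes of 17 lists, with raised genes in red, lowered genes in blue, genes that were not called in grey, and the list median as a black line. The 5 replication lists have medians between 0.74 and 1.03, the ChREBP list lies at -0.41, and the lists of hepatocyte metabolism and identity are centred near 0.

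A few glucose-responsive genes were lowered by hL. The ChREBP list is wider than its name. It holds Slc25a44 and Slc25a47, which the study sets apart from the known ChREBP targets. It also holds Lhx6, Hcn3 and Rnf144b, which the study reports as induced by GK overexpression. Of 20 tested genes of the list 3 were lowered, against 0.46% of all genes tested. A negative log2 fold change was found for 16 of the 20, whereas 6268 of all 12177 genes had a positive one. The list median was -0.41. Mlxipl, the gene of ChREBP itself, is a member of the list and was raised. Txnip, an inhibitor of glucose uptake, was 148 and 104 CPM in the untreated cultures of mouse 3, 42.1 and 47.7 CPM in those of mouse 2 and 17.6 and 14.9 CPM in those of mouse 1. With hL it was 21.6, 17.1 and 13.1 CPM in the same order. The difference therefore ran from large in mouse 3 to small in mouse 1, and the log2 fold change was -1.57 ± 0.31 (adjusted p = 0.00373). Slc2a2, the glucose transporter GLUT2, was 6.06, 23.1 and 20.1 CPM with hL in mice 1, 2 and 3, against untreated means of the 3 mice at 35.7 ± 17.6 CPM (log2 fold change -1.13 ± 0.28, adjusted p = 0.0204). Pklr, liver pyruvate kinase, fell by 0.60 on the log2 scale, from 89.2 ± 30.5 to 58.0 ± 18.8 CPM (SD, n = 3). For these genes the 2 groups overlapped across mice, and within each mouse the hL culture was below both untreated cultures. Mlxipl was 87.4, 65.3 and 56.2 CPM with hL against 29.9 to 57.5 CPM untreated (log2 fold change 0.65 ± 0.16, adjusted p = 0.0173). None of the 3 lowered targets was called without the block, with the length offset, or without mouse 2 or mouse 3. Without mouse 1 the list had 4 lowered members, but Slc2a2 was not among them.

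In the other metabolic lists few genes were called. No gene was called among 16 genes of glycolysis and gluconeogenesis, 8 of glycogen metabolism, 16 of fatty acid oxidation, 11 of bile acids, 18 of hepatocyte identity and 6 hexokinases, and each of these lists had a median between -0.11 and 0.18. In lipid synthesis 1 of 15 was raised, Dgat2, the last enzyme of triglyceride synthesis, by 0.49 ± 0.11. In cholesterol synthesis 1 of 24 was raised, Insig1, which retains SREBP in the endoplasmic reticulum, by 0.58 ± 0.10. Insig1 was 80.4 to 151 CPM untreated and 133, 213 and 183 CPM with hL. The calls of Dgat2 and Insig1 were lost without the block and without mouse 2 or mouse 3. Of 24 cytochrome P450 genes Cyp1a1 was raised by 1.14 ± 0.32 (adjusted p = 0.0483), a call lost in 13 of the alternative analyses. These lists do not cover all metabolic genes. Outside them Ppargc1b at 1.75, Fbp2 at 1.06 and Angptl4 at -1.04 were called, examples chosen after their values were seen.

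The strongest falls outside the ChREBP list need their values beside them. Ftl2-ps, a processed pseudogene of ferritin light chain, had 0.323 and 929 CPM in the 2 untreated cultures of mouse 1, 286 and 0 in mouse 2, 101 and 0.130 in mouse 3, and no reads in any hL culture. Against a floor of 3 reads per library its untreated mean of 182 CPM was at least 237-fold higher. The 2 cultures of the same mouse thus differed far more than the groups of other genes did, and reads of a pseudogene cannot be assigned with certainty. Pa2g4 behaved alike, from 1.29 to 26.3 CPM untreated and 0.466, 0 and 0 CPM with hL, and its call was lost in 7 alternatives. Trp53inp2, a factor of autophagosome formation, was steadier, at 28.1 to 48.4 CPM untreated and 11.9, 26.03 and 16.4 CPM with hL (log2 fold change -1.26 ± 0.17, adjusted p = 5.60e-05). The zinc finger genes Zfp128 and Zfp949 fell by 1.68 and 1.49 from untreated means of 1.68 and 4.60 CPM, and Mss51, 9230112E08Rik and Gm45133 fell by 1.24, 1.41 and 1.25. Of 19 alternatives the call of Gm45133 was lost in 13 and that of Mss51 in 10, DESeq2 included for both, and that of 9230112E08Rik in 5. The calls of Zfp949 and Trp53inp2 were lost in 4 and 3 of 19. That of Zfp128 was lost in 6 of 17, DESeq2 included. Of the 56 lowered genes 53 belong to none of the 26 lists, as do 247 of the 306 raised genes. Raised genes of high rank outside the lists were Paqr4 at 3.15, the transcripts Gm4739 and Gm15287 at 2.59 and 2.36, and Dppa3 at 2.41. Paqr4 was at most 0.777 CPM in the untreated cultures and 3.26 to 4.10 CPM with hL. Dppa3 was 14.9 CPM with hL against 3.39 and 2.53 CPM untreated in mouse 1, 0.728 CPM against 0 and 0.146 in mouse 2, and 2.87 CPM against 0.704 and 0.260 in mouse 3. It was higher with hL in 3 of 3 mice, with ranges that overlapped across mice, and its call was lost without mouse 1.

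The other GKRP vectors at endogenous GK were compared with the same 6 untreated cultures, so their values share a control and are given side by side only. Against untreated, hP (human GKRP-446P) raised 238 genes (1.95%) and lowered 61 (0.501%), 2.46% in all. The mouse vectors mP (446P) and mL (446L) raised 294 (2.41%) and 303 (2.49%) and lowered 109 (0.895%) and 82 (0.673%), which came to 3.31% and 3.16% in all. Mcm5 had log2 fold changes of 2.46 with hL, 2.53 with hP, 2.74 with mP and 2.62 with mL, and Ccne1 of 2.63, 2.74, 3.00 and 3.01. Txnip was at -1.57, -1.44, -1.53 and -1.22 in the same order. Chac1 was at 2.89 with hL, 1.80 with hP, 1.41 with mP and 2.27 with mL, and Hmox1 at 0.69, 0.03, 0.06 and 0.41.

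**Figure D3:**
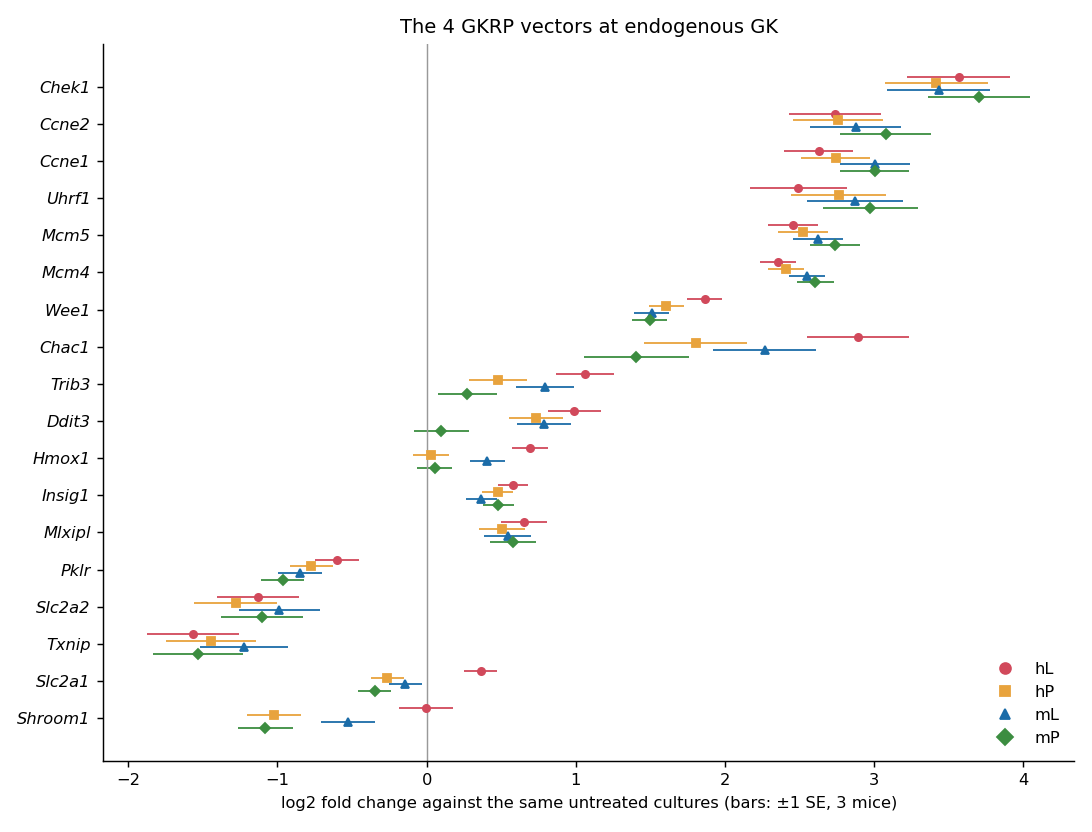
Log2 fold change against the same untreated cultures for 18 named genes with each of the 4 GKRP vectors at endogenous GK (3 mice each). The vectors are hL (red circles), hP (orange squares), mL (blue triangles) and mP (green diamonds), and bars are 1 SE of the edgeR fit. The 4 vectors lie close together for the replication genes, where Mcm4 spans 2.35 to 2.61, and further apart for Chac1, Trib3, Hmox1, Slc2a1 and Shroom1.

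The direct test of hL against hP uses no untreated library and asks what residue 446 changes in human GKRP. It called 0 of 12177 genes (0% raised and 0% lowered), with 347 higher and 271 lower at an unadjusted p under 0.05, and DESeq2 called 47. The interval of the difference for Mcm4 was -0.29 to 0.18 on the log2 scale (95%), for Ccne1 -0.55 to 0.32, for Txnip -0.77 to 0.53 and for Pklr -0.14 to 0.48. For Chek1, whose counts are lower, it was -0.45 to 0.75. The 3 genes with the smallest p were higher with hL and missed the threshold at an adjusted p of 0.0546: Slc2a1, the transporter GLUT1, by 0.63 (0.39 to 0.86), Hmox1 by 0.66 (0.42 to 0.91) and Shroom1 by 1.02 (0.63 to 1.4). Against untreated cells Slc2a1 with hL was at 0.36 (adjusted p = 0.0775) and Shroom1 at 0.00. Chac1 was higher with hL than with hP by 1.09 (0.43 to 1.75), with an adjusted p of 0.534.

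Human against mouse GKRP-446L gave 1 called gene, Gckr, which was 7.62 log2 units lower with hL (0.00821% of genes), the gene in which the mouse vector is counted. DESeq2 called 22. At an unadjusted p under 0.05, 416 genes were higher and 473 lower with hL. The intervals for Mcm5, Ccne2 and Txnip were -0.49 to 0.16, -0.71 to 0.43 and -0.99 to 0.30.

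The same vector was also given to cultures of the 3 mice that received a GK vector, and was compared there with 6 cultures of GK alone. No library is shared with the comparison at endogenous GK, though the mice are. In these cultures hL raised 198 genes (1.63%) and lowered 111 (0.912%), 2.54% together. Of the 306 genes raised at endogenous GK, 297 had the same sign with GK and 147 were also called, which is 48.0% of the 306 and 74.2% of the 198. Of the 56 lowered genes, 53 had the same sign and 27 were called, 48.2% of the 56 and 24.3% of the 111. Over all 12177 genes tested, the log2 fold changes of the 2 comparisons had a Spearman correlation of 0.323 and a Pearson correlation of -0.0652. The median log2 fold change of the raised genes was 0.60 with GK and 0.77 without. One library of GK alone, from mouse 3, held 1462 CPM of Gckr, where the other 5 held 51.8 to 98.0 CPM and the GK+hL cultures 45.7 to 70.4. Without it 143 of the 306 and 28 of the 56 were called with GK.

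**Figure D4:**
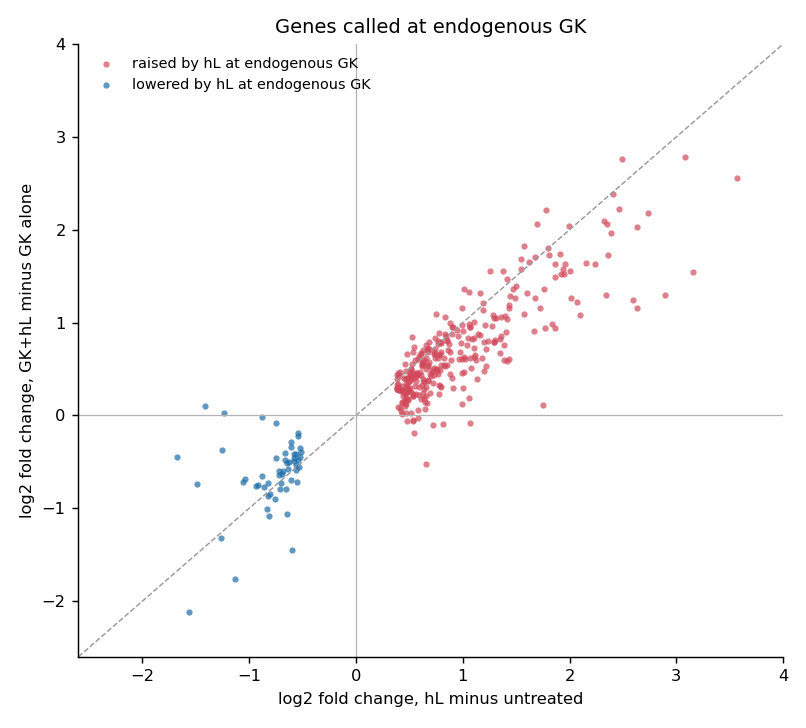
Log2 fold change of hL against untreated (horizontal) and of GK+hL against GK alone (vertical) for genes called at endogenous GK, raised in red and lowered in blue, with the line of equality dashed; Ftl2-ps and Pa2g4 are left out. Of all 306 raised genes 297 lie above 0 on the vertical axis and of all 56 lowered genes 53 lie below it.

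Replication genes rose with GK as well: 20 of 33 licensing genes were raised with a median of 0.79, and Mcm5 was at 2.22 and Ccne1 at 2.03. From these cultures the study reports members of the ChREBP list, such as Pklr, Angptl8 and Lhx6, as raised by GK and repressed by GKRP. The fall of such members with GK is therefore not a separate result. In the ChREBP list the counts stood as follows. With GK 16 of its 20 tested members were lowered by hL and the median was -1.39, beside 3 of 20 and -0.41 at endogenous GK. Txnip was 239 ± 127 CPM with GK alone and 51.5 ± 19.0 with GK+hL, a log2 fold change of -2.11 ± 0.29. Pklr went from 176 ± 54 to 63.5 ± 12.7 CPM (SD, n = 3), by -1.45 ± 0.15. Klf10, a transcription factor, and Angptl8, a regulator of lipoprotein lipase, were at -0.72 and 0.00 at endogenous GK and at -1.73 and -1.56 with GK, and both were called there. Without the library of GK alone that held Gckr, 16 of 20 were lowered with a median of -1.41.

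The interaction of hL with GK, the test of whether the response to hL differs with the level of GK, called 0 genes, while DESeq2 called 38. Unadjusted p-values under 0.05 were found for 342 genes with a positive and 367 with a negative difference. The smallest p-values were those of Wee1, Gm7694 and Mlxipl. Mlxipl rose by 0.65 with hL at endogenous GK and was at -0.53 ± 0.16 with GK (adjusted p = 0.0686), a difference of -1.18 (95% interval -1.63 to -0.72) with an adjusted p of 0.103. For Wee1 the increase was 1.86 at endogenous GK and 0.94 with GK, a difference of -0.92 (-1.26 to -0.59, adjusted p = 0.0812). For Pklr the difference was -0.85 (-1.28 to -0.42, adjusted p = 0.381), and the median over the ChREBP list was -0.85, beside -0.02 over all genes.

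**Figure D5:**
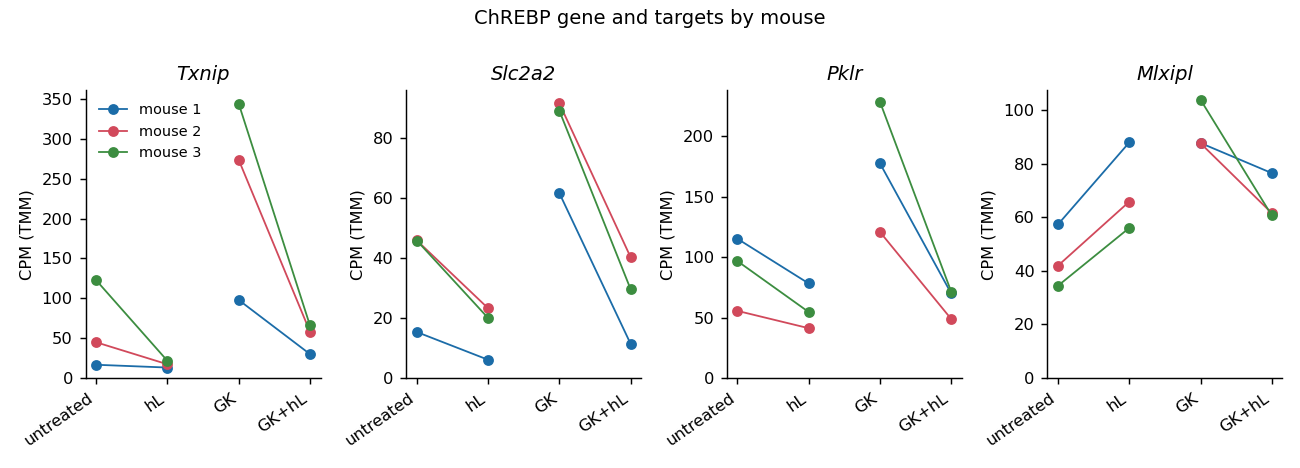
CPM (TMM-scaled, linear axis from 0) of Txnip, Slc2a2, Pklr and Mlxipl in each mouse, untreated and with hL at endogenous GK (left pair) and with GK alone and GK+hL (right pair), lines joining cultures of the same mouse. Txnip, Slc2a2 and Pklr are lower with hL in 3 of 3 mice in both pairs, whereas Mlxipl is higher with hL in the left pair and lower in the right pair.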

How the data were processed

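RNA-seq libraries of 36 hepatocyte cultures were quantified by the authors with Salmon 1.4.0 against mouse Gencode M26 transcripts (GRCm39), per the labels and the study's methods. The deposited tables give, for each transcript, an estimated count of reads, a TPM value and an effective length. Reads were not pooled across cultures by the authors. Here the deposited estimated counts were summed to 52230 genes of Gencode M39 (98.8% of 139225 transcripts matched; 0.392% to 0.639% of reads did not) and rounded. The deposited TPM values served for sums of cell type markers, and the deposited effective lengths for an offset in 1 alternative.

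The 2 cultures of each mouse in untreated cells and in GK alone differed beyond sampling noise and were summed, which left 30 samples of 10 conditions and 3 mice. Genes were filtered with filterByExpr, scaled by TMM and tested with edgeR 4.0.16 (R 4.3.3, limma 3.58.1) by the quasi-likelihood F test with condition and mouse as terms. P-values were adjusted by Benjamini-Hochberg over 12177 genes, and a call needed an adjusted p under 0.05 and a fold change of 1.3 or more, or 0.7 or less. Samples of the same mouse share a hepatocyte preparation, per the labels, and the deviations of hL and untreated samples of a mouse correlated at 0.233, 0.262 and 0.236. Other versions were DESeq2 1.42.0, Python 3.11.15, numpy 2.4.6, pandas 2.3.3, scipy 1.17.1 and matplotlib 3.10.9. The script for the tests was tested on simulated data. The 95% intervals of differences come from the edgeR fit and rest on the spread left after condition and mouse are fitted. The floor of 3 reads covers counting error only.

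Named genes were Gckr, the 15 called genes with the largest increase and the 10 with the largest decrease (mean of at least 1 CPM, same direction in 3 of 3 mice), and in each list the 4 called members with the largest change or, with fewer than 2 called, the 2 with the smallest p. In the direct tests and the interaction they were the called genes, up to 10, or the 3 with the smallest p. Other members of the lists are given as examples chosen after their values were seen. Some genes that the rule or the lists name are not reported here. The cultures, lists and genes were chosen with earlier results of these data known. Alternatives were DESeq2, RLE size factors, other filters, fold thresholds and sample sets, no mouse block, each culture as a sample, a length offset, and leaving out each mouse or untreated culture. Leaving out the GK culture with high Gckr was added after seeing the data.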

Additional observations from a re-analysis of the deposited data

Results flagged for a closer look

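Of 84 sets of 6 untreated cultures checked for 1 value far from the others, 3 stood out (3.57%), where chance gives about 1 in 20. Ftl2-ps had 929 CPM in untreated culture 2, and the next highest culture had 286 CPM. Timeless had 0.352 CPM in untreated culture 5, below the next lowest at 1.94 CPM. Ddit3 had 7.62 CPM in untreated culture 3, above the next highest at 5.33 CPM.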

How the results depend on the processing

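Of 48 called genes among the 79 named, 8 kept their call in all 19 alternatives. DESeq2 kept 45, no mouse block 27, the conditions of the contrast alone 19 of 47, the transcript length offset 11, and leaving out mouse 1, 2 or 3 kept 37, 30 of 47 and 18. The causes of these losses were not tested, beyond the smaller number of samples in the fits that leave samples out. For hL against untreated, raised and lowered genes numbered 306 and 56, against 98 and 9 with no replicate block, 58 and 25 with the conditions of the contrast alone, 20 and 1 with the length offset, and 111 and 12 at a 2-fold threshold. Without a filter 195 were raised, DESeq2 lowered 100, and an adjusted p alone gave 138 lowered. Leaving out 1 mouse gave 55 to 163 raised and 6 to 41 lowered genes, the lowest without mouse 3, and leaving out 1 untreated culture gave 269 to 340 and 50 to 62. Against hP the stricter filter gave 4 genes and DESeq2 47. Against mL DESeq2 gave 22, the contrast alone 3, and leaving out a mouse 1 to 2. For hL with GK, where 198 were raised and 111 lowered, no block gave 57 and 16, the contrast alone 27 and 11, the length offset 12 and 5, and the 2-fold threshold 66 and 31. No filter gave 114 raised, an adjusted p alone 180 lowered, and leaving out a mouse 47 to 112 raised and 22 to 81 lowered. The interaction had 38 genes in DESeq2, 3 with each culture as a sample, and 0 to 1 without a mouse. Without the GK culture with high Gckr, hL with GK raised 196 and lowered 119 genes. Reversals were found for genes that were not called. Under the length offset Elovl5 was at -0.0522, Pcx at -0.112, Pygl at 0.275, Oasl1 at -0.0929, Cxcl1 at 0.175, Cyp2a5 at -0.319 and Shroom1 at 0.981. Shroom1 was at 0.018 with no block, -0.206 to 0.184 without 1 mouse, and 0.0286 and 0.105 without untreated culture 2 or 6. Without 1 mouse Col3a1 ran from -0.0382 to 0.587 and Ptprc from -0.0922 to 1.08. Genes with few reads, such as most of the mitotic list, could not be tested at this depth.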
